A study of Canis lupus familiaris with 10 samples.

Results

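The 9 genes described here encode the invariant chains of the T-cell receptor complex, the kinases that act first on them, and 3 surface receptors of T cells. They are CD3D, CD3E, CD3G, CD247, LCK, ZAP70, CD2, CD5 and CD6, taken by symbol from a table of 23266 genes, and all 9 were found. Their transcripts were quantified with QuantSeq 3′ RNA-Seq, which reads 1 short fragment near the polyadenylated end of each mRNA, in formalin-fixed, paraffin-embedded (FFPE) canine cutaneous histiocytoma (CCH). CCH is a benign skin tumor of dogs that derives from the Langerhans cell lineage and regresses spontaneously. The 5 early tumors belong to histological group 1 and the 5 late tumors to histological group 3, whose labels describe them as lymphocyte enriched. The paper describes group 1 as free of lymphocytes and group 3 as increasingly infiltrated by them. The grouping is therefore not independent of the lymphocyte content that the 9 genes reflect. Each tumor came from a different pet dog. The early dogs were 2 French Bulldogs, a Goldendoodle, a Terrier and a Boxer between 0.5 and 5 years old (age given for 4). The late dogs were a Rottweiler, a Beagle, a Pug, a Bullterrier and a Jack Russell Terrier between 1.5 and 9 years old. RNA came from entire cross sections after removal of tissue next to the tumor, so that every value is an average over tumor cells, infiltrating leukocytes and stroma.

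A T cell recognizes antigen with a receptor whose variable chains carry no signaling part of their own. The CD3 chains and the zeta chain encoded by CD247 carry the tyrosine activation motifs, which the kinase LCK phosphorylates and to which the kinase ZAP70 then binds. CD2 is an adhesion and costimulatory receptor, and CD5 and CD6 are related scavenger-type receptors that modulate the signal. The CD3 chains mark T cells, whereas natural killer (NK) cells can also express CD247, LCK, ZAP70 and CD2, and a subset of B cells can express CD5. In such bulk tissue, fewer T cells and less of these transcripts per T cell cannot be told apart.

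The libraries held between 3132916 and 4439709 reads assigned to genes in early and between 2973125 and 3230455 in late CCH. DV200, the share of long RNA fragments and a measure of RNA integrity, was 68.5% ± 2.46 in early and 73.2% ± 2.09 in late samples (SD, n = 5 each, exact two-sided permutation p = 0.0238). Early and late samples went through separate RNA extraction batches, and an effect of batch and of stage cannot be told apart. The numbers 1 to 5 of the libraries of a stage serve as names and carry no order.

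Each of the 9 genes had a higher normalized read count in every late library than in any early library. Of the 12397 genes tested, 5.91% showed this pattern and 6.05% the opposite one. The log2 fold change (log2FC, late minus early, on log2(value + 1)) lay between 2.86 for CD2 and 3.85 for CD6, with a median of 3.29, against a median of -0.004 over all genes tested, of which 49.8% had a log2FC above 0 and 2.84% one of at least 2. A gene was called when its Benjamini-Yekutieli (BY) adjusted p from limma did not exceed 0.05 and its log2FC was 1 or more in size. By this rule 1 of the 9 genes, CD6, was called, where 1.06% of the genes tested were called higher. With Benjamini-Hochberg (BH) adjustment, all 9 were called, against 5.53% of the genes tested, and all 9 had an unadjusted p of at most 0.05 with a higher level in late CCH, against 15.6%. All 9 genes passed the filter on low values.

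Library by library, the early tumors differed far more among themselves than the late ones. The summed normalized read count of the 9 genes was 62.8, 704, 2270, 1550 and 239 in early libraries 1 to 5. In late libraries 1 to 5 it was 5109, 4081, 3943, 5571 and 4661. The highest early sum was thus 36.1 times the lowest, while the highest late sum was 1.41 times the lowest. Without early library 1, the highest early sum was 9.48 times the lowest. Early library 3, the highest of its stage, reached 57.6% of the lowest late library. Early library 1 held 66 reads of the 9 genes together, and 8 of the 9 genes had a normalized read count under 10 in it.

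**Figure D1:**
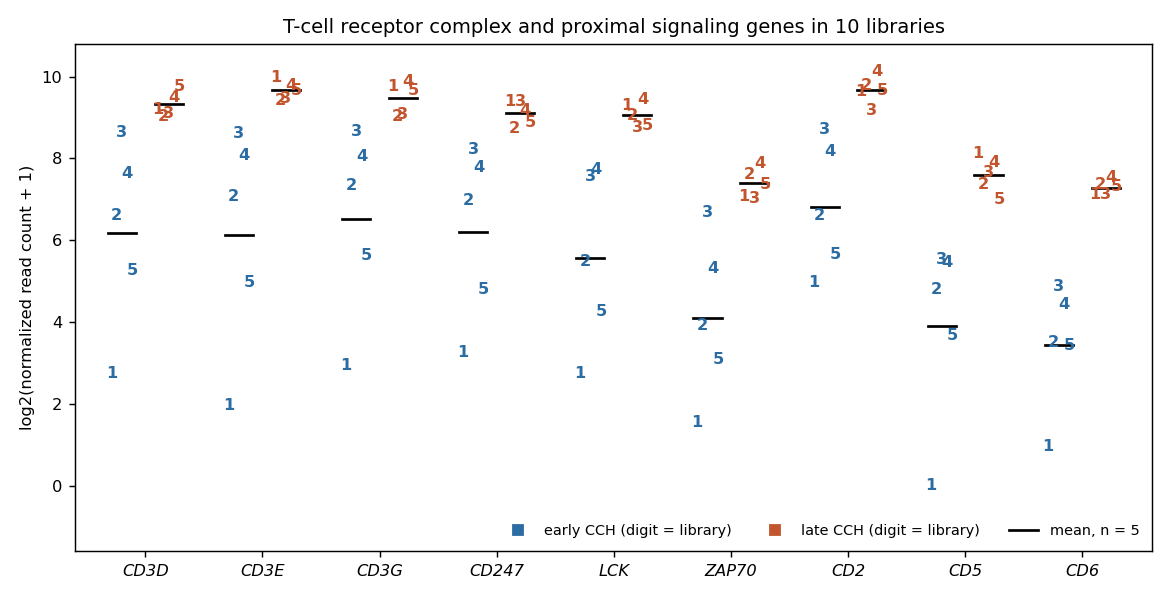
Level of each of the 9 genes in the 10 libraries, as log2(normalized read count + 1) on the y-axis; each digit is a library of that number, blue for early and red for late CCH, and the bars are means of 5 libraries. For every gene the late digits lie together above all early digits, which run from library 1 at the bottom to library 3 or 4 at the top.

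The order of the early libraries was nearly the same for all genes. For 8 of the 9 genes it was, from low to high, library 1, 5, 2, 4 and 3. For LCK alone, library 4 lay above library 3. Of all genes tested, 1.22% followed this order, 17.7% were lowest in early library 1 and 16.9% were highest in early library 3. No order was shared by more than 2 genes in the late libraries, and the lowest late library was number 2 for 4 genes and number 3 for 3 genes.

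Among the receptor chains, CD3E, which pairs with CD3D or CD3G in the complex, had normalized read counts of 2.86, 134, 393, 266 and 30.1 in early libraries 1 to 5. In late libraries 1 to 5 they were 1015, 686, 708, 877 and 813. The lowest late value was 1.75 times the highest early value, and the value of early library 1 comes from 3 reads, no more than a count of 0 would allow. The mean was 165 ± 164 in early and 819.9 ± 134 in late CCH (SD, n = 5 each), a 4.96-fold difference of arithmetic means. The log2FC compares means of log2 values instead, so it is not the log of this fold difference. It was 3.53 ± 0.98 (SE), with a 95% confidence interval of 1.40 to 5.67 and a BY-adjusted p of 0.308 from limma. Without early library 1 the log2FC of CD3E was 2.49.

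CD3D, the delta chain, had values of 5.71, 95.8, 399.8, 198 and 37.6 in the early libraries. The late libraries had 588, 522, 550.1, 723 and 869. The groups were separated by a narrow gap, with the lowest late value at 1.31 times the highest early value. The log2FC was 3.14 ± 0.83 (SE, BY-adjusted p = 0.252, limma). CD3G, the gamma chain, was at 6.66, 160.0, 402, 262 and 48.3 in early CCH. In late CCH it was at 861, 519, 539, 936 and 803. Late library 2 was the lowest of its stage for all 3 CD3 genes and for CD247. The log2FC of CD3G was 2.96 ± 0.84 (SE, BY-adjusted p = 0.332, limma), the highest adjusted p among the 9 genes.

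CD247, the zeta chain, had values of 8.57, 124, 299, 219.7 and 26.8 in the early libraries. It had 670.2, 421, 674, 576 and 468 in the late libraries. Its highest late value was in library 3, in which CD3D, CD3E, CD3G and CD2 were among the 2 lowest of their stage. The log2FC was 2.90 ± 0.77 (SE, BY-adjusted p = 0.252, limma).

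Of the kinases, LCK had values of 5.71, 43.7, 188, 213 and 18.3 in the early libraries. The late values were 626, 529.9, 431, 690.2 and 449, so that the lowest of them was 2.03 times the highest early value. The mean was 93.7 ± 98.7 in early and 545 ± 112 in late CCH (SD, n = 5 each), a 5.82-fold difference of arithmetic means. Its log2FC of 3.51 ± 0.78 (SE) had a BY-adjusted p of 0.120 from limma. ZAP70 was low in early CCH, with 1.90, 14.0, 101, 38.6 and 7.51, of which the first is 2 reads. The late libraries had 134, 194, 129.8, 234 and 165. Early library 3 came close to the late range, and the lowest late value was 1.28 times this value, the narrowest gap of the 9 genes. The log2FC of ZAP70 was 3.29 ± 0.74 (SE, BY-adjusted p = 0.126, limma). Without early library 3, ZAP70 was called (log2FC 3.93, BY-adjusted p = 0.0282, limma), where 1.18% of the genes tested were called higher.

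Among the surface receptors, CD2 was the only gene with a normalized read count over 10 in every early library. Its early values were 30.5, 95.8, 414, 289 and 49.4, and its late values were 800.5, 882, 571, 1114 and 811. With 2.86 ± 0.59 (SE), CD2 had the lowest log2FC of the 9 genes and an SE below that of all but CD6, and its BY-adjusted p was 0.0853 (limma). It was called without early library 3 (log2FC 3.32, BY-adjusted p = 0.0298, limma).

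CD5 had 0 reads in early library 1, which allows a normalized read count of up to 2.86, and 27.0, 45.2, 42.5 and 11.8 in early libraries 2 to 5. Its late values were 276, 164, 201, 237 and 126. The lowest late value was 2.78 times the highest early value. The log2FC was 3.71 ± 0.86 (SE, BY-adjusted p = 0.137, limma). Without early library 1, CD5 was called with a lower log2FC of 2.74 (BY-adjusted p = 0.0321, limma), where 0.254% of the genes tested were called higher.

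CD6, a receptor for the adhesion molecule ALCAM, had 0.952, 10.2, 28.0, 20.5 and 9.66 in the early libraries. It had 137, 163, 138, 184 and 158 in the late libraries, the smallest relative spread of the 9 genes in late CCH (12.5% of the mean). The lowest late value was 4.89 times the highest early value, the widest gap of the 9 genes. CD6 rose 11.2-fold by the means, from 78 reads in the 5 early libraries together to 782 in the late ones. Its log2FC was 3.85 ± 0.58 (SE, 95% confidence interval 2.60 to 5.11, BY-adjusted p = 0.0226, limma). The call was lost without early library 5 or without late library 1, 2, 4 or 5, with BY-adjusted p-values between 0.0654 and 0.0924, while the log2FC stayed between 3.24 and 4.21 in all fits that left out 1 library. These 5 fits called 0.163%, 0.238%, 0.148%, 0.156% and 0.32% of the genes tested higher, in the order given. The call remained without early library 1, 2, 3 or 4 or without late library 3, where 0.254%, 1.14%, 1.18%, 0.863% and 0.623% were called higher.

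Tests on the recovered reads gave smaller differences for each gene. With the edgeR quasi-likelihood test, the log2FC ranged from 2.07 for CD247 to 3.48 for CD6, and only CD6 was called (BY-adjusted p = 0.0202), where 0.653% of the genes tested were called higher. DESeq2 called CD6, CD5, CD2 and ZAP70 (4 of 9) against 3.87% of the genes tested. The cause of the smaller differences was not tested. Without early library 1, the limma log2FC of the 9 genes lay between 2.06 and 3.24. Of all calls, 48.7% were higher in late CCH with the size factors of the authors and 64% with scaling to the column total, and only CD6 of the 9 genes was called with either.

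**Figure D2:**
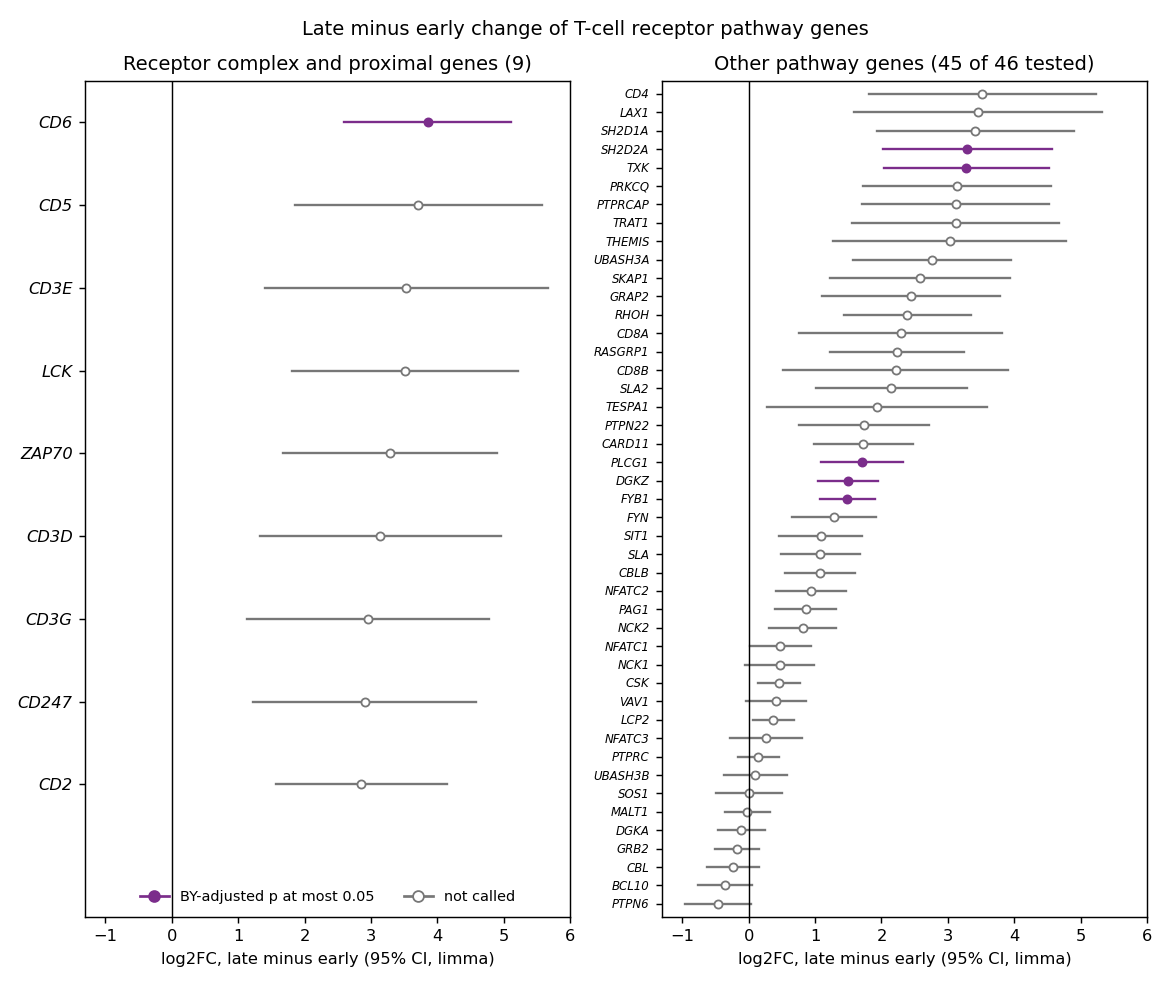
Log2FC (x-axis, late minus early, log2 units) with 95% confidence interval from limma for the 9 genes (left) and 45 of the 46 other pathway genes tested (right); filled purple points were called by the BY rule. All 9 intervals on the left lie above 0 and only CD6 is filled, while the genes on the right run from 3.52 for CD4 to -0.46 for PTPN6.

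To see whether the difference between the stages was unequal among the genes, 6 ratios were compared between the stages within libraries. For CD247 over CD3E, the log2 ratio was 0.07 ± 0.70 in early and -0.55 ± 0.28 in late CCH (SD, n = 5 each). This was the largest difference relative to its spread (-0.63, exact two-sided permutation p = 0.0476, BH-adjusted over 6 ratios p = 0.286). The early value of library 1 was 1.31, from 9 reads of CD247 and 3 of CD3E, and the other 4 lay between -0.39 and -0.11. For CD2 over CD3E, early library 1 was also the highest with 3.03, and the stages differed by -0.68 (exact p = 0.373, adjusted p = 0.714). The CD3D over CD3E ratio differed by -0.39 (exact p = 0.222, adjusted p = 0.667) and ZAP70 over LCK by -0.22 (exact p = 0.476, adjusted p = 0.714). LCK over CD3E differed by -0.02 and CD6 over CD5 by 0.14 (exact p = 0.929 and 0.754, adjusted p = 0.929 and 0.905). Without early library 1, the difference moved to -0.32 for CD247 over CD3E, to -0.09 for CD2 over CD3E, to -0.20 for CD3D over CD3E and to 0.50 for CD6 over CD5, and that of LCK over CD3E turned to 0.32. With all 5 libraries of a stage, the SD of each of the 6 ratios was lower in late than in early CCH. The late SD ran from 0.23 for LCK over CD3E to 0.51 for CD6 over CD5, which spanned -1.01 to 0.33 in the late libraries. For CD247 over CD3E this rested on early library 1, since the late values, from -0.80 to -0.07, spanned more than the other 4 early ones. The same held for CD6 over CD5, with -1.32 to -0.26 in early libraries 2 to 5. No ratio passed the adjustment, and with 5 libraries a stage and early SD values of 0.53 to 1.37 a moderate difference could be missed.

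**Figure D3:**
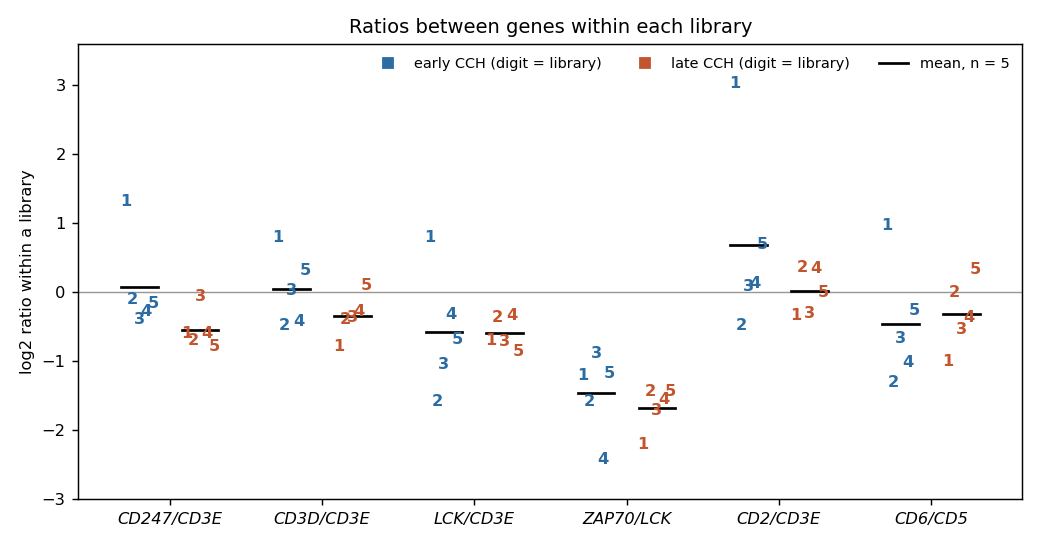
Log2 ratio of 6 pairs of the 9 genes within each library (y-axis, log2 units); digits are libraries, blue for early and red for late CCH, and bars are means of 5. The early digits are more spread than the late ones in each pair, and early library 1 is the highest digit of 5 of the 6 pairs. Without early library 1, the early digits of CD247 over CD3E and of CD6 over CD5 span less than the late ones.

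Profiles over the 10 libraries were compared by the root mean square (RMS) distance of centered log2 values. CD3D and CD3G were the nearest pair with a distance of 0.27, and CD2 and CD5 the farthest with 0.97. The median distance of all genes tested from the mean profile of the 9 genes was 2.17. This is a distance to a mean, not between 2 genes, and it is also large for genes that did not differ between the stages. CD3D lay closest to the other 8 genes (0.30) and CD6 farthest from them (0.60). Outside the 9 genes, those near their mean profile included LOC607937 with 0.33, GZMK with 0.34, TIGIT with 0.39 and PTPRCAP with 0.39. GZMK is a granzyme of cytotoxic lymphocytes, TIGIT an inhibitory receptor and PTPRCAP a protein associated with CD45. Their log2FC values lay between 2.83 and 3.63, and these 4 genes were higher in every late than in any early library. Both follow largely from their choice by likeness over the same libraries.

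The rest of the pathway was read from a list of 48 other genes of T-cell receptor signaling, of which 46 passed the filter. Limma called 5 of them higher and 0 lower with BY adjustment, against 1.06% and 1.11% of all genes tested, and their median log2FC was 1.49. With BH adjustment 26 were called higher, against 5.53% of all genes. Without adjustment, 34 had a p of at most 0.05 with a higher and 0 with a lower level in late CCH, where 15.6% of all genes were higher. The edgeR test called 3 higher and DESeq2 20, against 0.653% and 3.87% of all genes, and both called 0 lower. Of the 46 genes, 18 were higher in every late than in any early library, against 5.91% of all genes.

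The 5 calls were TXK, SH2D2A, PLCG1, DGKZ and FYB1. TXK, a Tec-family kinase of T cells, rose by 3.28 ± 0.57 (SE) on the log2 scale, with means of 13.0 ± 10.2 and 117 ± 55.1 (SD, n = 5 each) and a BY-adjusted p of 0.0436 (limma). SH2D2A, an adaptor that binds LCK, rose by 3.29 ± 0.58 (SE), with means of 33.1 ± 31.8 and 222 ± 42.8 and a BY-adjusted p of 0.0464 (limma). PLCG1, the phospholipase that produces the second messengers of the receptor, rose by 1.71 on the log2 scale. FYB1, an adaptor that links the receptor to integrins, rose by 1.49, and DGKZ, a kinase that removes the messenger diacylglycerol, rose by 1.50. These 3 genes were expressed in every early library, with at least 46.6, 398 and 77.3 normalized reads, respectively. Their BY-adjusted p-values from limma were 0.0363, 0.0119 and 0.0166. The number of calls on this list fell to 1 without late library 1, 2 or 4, to 2 without early library 1 or 5 and to 3 without early library 2 or late library 3 or 5, and it was 11 without early library 3.

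The coreceptors, which bring LCK to the receptor, overlapped between the stages. CD4 had 5.71, 66.1, 23.5, 19.7 and 1.07 in the early and 298, 56.1, 127, 240.3 and 177 in the late libraries. Only late library 2 lay within the early range of CD4, below early library 2. The log2FC of CD4 was 3.52 ± 0.79 (SE, BY-adjusted p = 0.121, limma). CD8A had 20.0, 145, 501, 297 and 66.6 in the early and 738, 604, 259.6, 869 and 863 in the late libraries, and only late library 3 fell within the early range. CD8B had 14.3, 183, 381, 414 and 58.0 in the early and 763, 327, 288, 832 and 927 in the late libraries. The log2FC was 2.29 ± 0.70 for CD8A and 2.21 ± 0.78 for CD8B (SE, BY-adjusted p = 0.448 and 0.742, limma). The early order of CD8A was that of the 8 genes above, whereas CD4 was highest in early library 2.

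Chosen after their values were seen, 2 further genes stood apart on this list. PTPRC, which encodes CD45 of all leukocytes, had 2488 ± 403 normalized reads in early and 2730 ± 222 in late CCH (SD, n = 5 each). The log2FC of PTPRC was 0.15 with a 95% confidence interval of -0.17 to 0.46 (BY-adjusted p = 1, limma). LAT, the adaptor phosphorylated by ZAP70, had 0 reads in all early libraries and 5 reads in the late libraries together and was not tested. Whether reads of LAT were missed in the counting per gene was not tested either.

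The ligands of CD2 and CD6 did not pass the test. CD58 and CD48, members of the family that binds CD2, had log2FC values of 0.14 ± 0.20 and 0.10 ± 0.19 (SE, BY-adjusted p = 1 each, limma). ALCAM, which binds CD6, was at 338 ± 87.7 in early and 213 ± 51.0 in late CCH (SD, n = 5 each), which differed by -0.65 ± 0.23 on the log2 scale (SE, BY-adjusted p = 0.786, limma). CDCP1, another ligand of CD6, had few reads and differed by -0.51 ± 0.61 (SE, BY-adjusted p = 1, limma). Of these 4 genes, 1 (ALCAM) had an unadjusted p of at most 0.05, and edgeR and DESeq2 called 0.

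Markers of other cell types differed between the stages to varying degrees. Of 7 B cell markers, 6 were tested, and limma called 0 with BY and 3 with BH adjustment, edgeR 0 and DESeq2 3, while 5 were higher at an unadjusted p of at most 0.05. Over all genes tested the shares called higher were 1.06%, 5.53%, 0.653%, 3.87% and 15.6%, in the same order. Of these markers, 3 were higher in every late than in any early library, against 5.91% of all genes, and the log2FC values ran from -0.28 for CD22 to 4.67 for CD79B. Their summed level was 479 to 726 in early and 604 to 3169 in late CCH, and no marker was at 0 in a whole stage. Most of the early sum was CD22, with 375 to 576 normalized reads in the early libraries. Of 8 NK cell markers, 6 were tested. Limma called 1 higher with BY and 2 with BH adjustment, edgeR 0 and DESeq2 2, while 2 were higher and 1 lower at an unadjusted p of at most 0.05. Both KLRK1 and KLRD1 were higher in every late than in any early library, KLRD1 with a log2FC of 2.99 (chosen after its value was seen). KLRK1, a receptor that T cells share, rose by 3.30 (BY-adjusted p = 0.0436, limma), and TYROBP, which myeloid cells share, had the lowest log2FC of the list with -0.82 (BY-adjusted p = 0.0805, limma). NCR1, the defining NK cell receptor, had 0 reads in all early and 11 in the late libraries together. The summed NK cell list, which TYROBP dominates, was 3026 to 4338 in early and 2214 to 2807 in late CCH. The part of NK cells and B cells in the levels of the 9 genes was not tested.

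Of 9 macrophage markers, 8 were tested. Limma called 0 with BY and 2 higher with BH adjustment, edgeR 0 and DESeq2 1 higher, while 4 were higher at an unadjusted p of at most 0.05. Over all genes tested the shares called higher were 1.06%, 5.53%, 0.653%, 3.87% and 15.6%, in the same order. A further 1 was lower at an unadjusted p of at most 0.05. The log2FC values of the macrophage markers ran from 2.25 for MSR1 to -0.88 for MRC1. Their sum overlapped between the stages, with 2587 to 11070 in early and 5878 to 11364 in late CCH. Of the 7 Langerhans and dendritic cell markers in the table, 6 were tested. All 6 had a log2FC below 0, from ITGAX with -0.13 to CD1A8 with -3.80, while 49.8% of all genes tested had one above 0. For this list limma called 1 lower (FLT3, log2FC -2.89, BY-adjusted p = 0.0434), against 1.11% of all genes tested. With BH adjustment limma called 2 lower, against 3.52% of all genes tested. For this list edgeR called 0 and DESeq2 2 lower, where they called 96 and 330 of the 12397 genes tested lower. At an unadjusted p of at most 0.05, 3 were lower. The share of all genes lower at this level is not given here, so such counts, also on the other lists, have no background beside them. Their sum was 941 to 2778 in early and 702 to 1043 in late CCH. Early libraries 3 and 4, which held the most reads of the 9 genes among the early libraries, also had the highest sums of this list, 2778 and 2683.

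**Figure D4:**
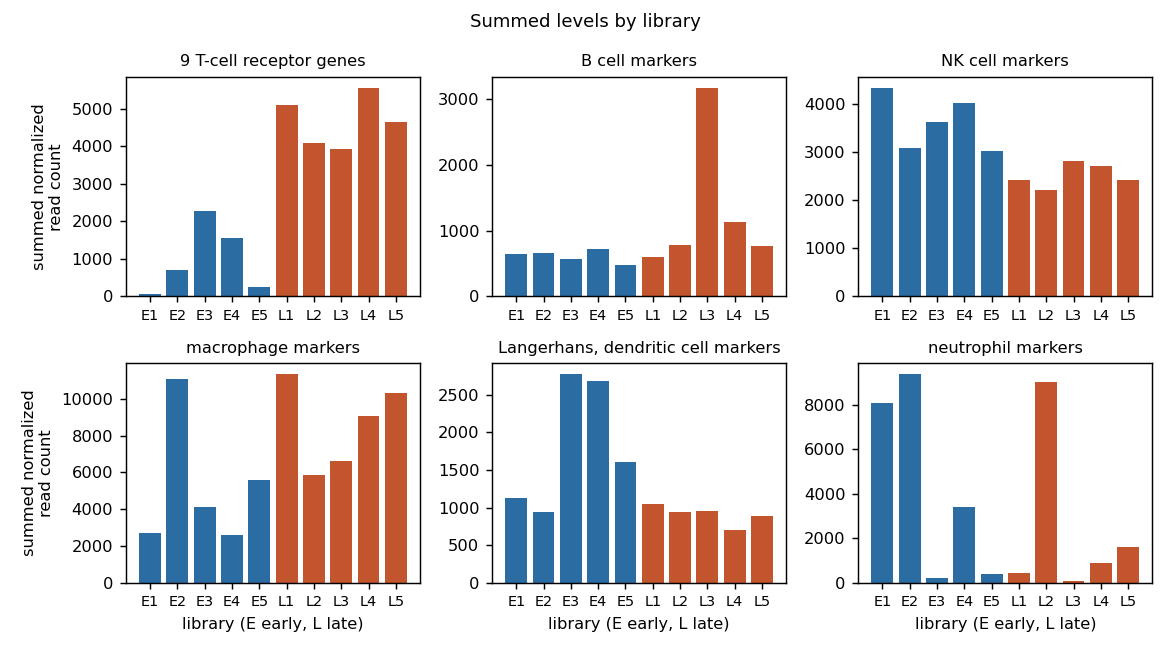
Summed normalized read count (y-axis, from 0, scaled per panel) of the 9 genes and of 5 marker lists in each library (x-axis, E early in blue, L late in red). Among these panels, only that of the 9 genes has every late bar above every early bar. The sum of the other pathway genes, not drawn, was also separated, with 9704 to 14165 in early and 16823 to 21551 in late CCH. The sums weight abundant genes most, TYROBP in the NK cell panel and CD22 in the early B cell bars. Taken singly, 3 B cell and 2 NK cell markers were higher in every late than in any early library. The B cell panel is dominated by late library 3.

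Reads of neighboring genes could be assigned to the 9 genes, since counting used genes extended downstream. In the RefSeq table of the later dog assembly UU_Cfam_GSD_1.0, CD3D and CD3G lie next to each other, and UBE4A, POU2F1, HDAC1, FAM167B and VPS37C lie within 5000 bases of CD3G, CD247, LCK, LCK and CD5. C10H2orf92, the neighbor of ZAP70, is not among the symbols used and was not analyzed here. None of these 5 was called by limma (BY-adjusted p = 1 each), edgeR or DESeq2, 1 had an unadjusted p of at most 0.05, and their log2FC values lay between -0.07 and 0.88, the highest being that of FAM167B beside LCK. Whether reads were shared between CD3D and CD3G was not tested.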

How the data were processed

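RNA of 10 FFPE tumors was extracted and sequenced with the QuantSeq 3′ FWD protocol for low-quality RNA. According to their methods, the authors trimmed reads with Cutadapt, aligned them with STAR to CanFam3.1, counted them per gene in 2 rounds of featureCounts (the second on genes extended downstream) and shared multi-mapped reads evenly. Versions are not given in the sources used here. The deposited signal is a read count per gene divided by 1 size factor per library. Of the 166096 values above 0, 100% were whole multiples of the value of a single read (tolerance 1e-06), which gave the recovered reads. Of 21 columns, 11 match no sample and were not used. The others carry the stage and a code that GEO's sample titles do not hold. DV200, age and sex were not linked to single libraries, which GEO's labels alone do not allow, and no other link was tried. Samples of a stage differed in dog, age and extraction batch, and in DV200, which ran from 64.5% to 71.2% in early and from 71.2% to 75.8% in late CCH.

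The test was limma (3.58.1, R 4.3.3) on log2(value + 1), with its trend option, for genes that reached a value of 10 in 5 or more libraries. Adding 1 lessens the change of low genes on this scale. The limma log2FC of each of the 9 genes was nevertheless higher than that from edgeR or DESeq2. P-values were BY-adjusted over all genes tested. For ratios, the exact permutation test (two-sided) enumerated 252 assignments. The 3 reads that a count of 0 allows correspond to a value of 2.36 to 3.22. This limit covers counting error only, since no molecular identifiers were used and reads can be copies of a molecule. Alternatives were other pseudocounts, filters, scalings and moderation, BH adjustment, weights per library, edgeR (4.0.16), DESeq2 (1.42.0) and leaving out each library. Limma, edgeR and DESeq2 with their main settings were tried on simulated data, and the permutation test on a fixed set of values. The simulation gave both stages the same dispersion, whereas the 9 genes varied more in early CCH. It does not show how the tests behave on such genes. The other settings were not tried on simulated data. The 9 genes and all lists (other pathway genes, ligands, and markers of B cells, NK cells, Langerhans and dendritic cells, macrophages, keratinocytes, endothelium and neutrophils) were chosen with earlier results of these data known. Named were the 9 genes, their ligands and neighbors, the coreceptors and up to 5 highest and lowest calls of the pathway list, the highest and lowest log2FC of a marker list and the 5 nearest profiles, except 1 pathway gene that is not reported here. Of the 23266 symbols, 19767 were found in the RefSeq table of UU_Cfam_GSD_1.0, which served only to find neighbors.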

Additional observations from a re-analysis of the deposited data

Results flagged for a closer look

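The values of the 5 libraries of a stage were searched for a single library far from the other 4, in 52 groups (each of the 9 genes and their sum, the 6 ratios, the total reads and 9 gene lists, by stage). The gap to the closest other library, relative to the whole spread of the 5, was above Dixon's limit of 0.71 in 4 groups, and about 2.6 are expected by chance. The log2 ratio of CD247 over CD3E was 1.31 in early library 1, against -0.11 in the next early library (relative gap 0.836). In late CCH the same ratio was -0.071 in library 3, against -0.60 in the next library (relative gap 0.728). The summed B cell markers reached 3169 in late library 3, against 1126 in the next late library (relative gap 0.796). The summed neutrophil markers reached 9002 in late library 2, against 1587 in the next late library (relative gap 0.832). None of the 9 genes exceeded this limit in either stage.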

How the results depend on the processing

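No paired analysis was possible because no column of the table carries a replicate number and the samples come from different dogs. The log2FC of each of the 9 genes was above 0 in all 189 fits under the 21 alternatives, between 2.06 and 4.21. The number called changed. It was 2 with a pseudocount of 5 (CD5 and CD6), 9 with BH adjustment, 4 with DESeq2, and 1 with each other alternative that kept all libraries. Without 1 library it was 0 to 3, and the 5 fits with 0 each had all 9 genes at an unadjusted limma p of at most 0.05, while 0.148% to 1.18% of all genes were called higher over the 10 fits. Calls on the pathway list numbered 8 with a pseudocount of 5, 26 with BH, 3 with edgeR, 20 with DESeq2 and 8 with weights per library, and 1 to 11 without 1 library. It had 0 lower calls throughout. Over all genes, 131 were higher and 138 lower. BH gave 685 and 436, DESeq2 480 and 330, edgeR 81 higher and weights 217 higher. Without 1 library there were 18 to 144 higher and 29 to 153 lower. BY is stricter than BH by construction, and the cause of the other changes was not tested. LCK over CD3E turned to 0.010 with a pseudocount of 5 and ranged from -0.28 to 0.32 without 1 library, and CD6 over CD5 from -0.072 to 0.50 (also below 0 without late library 5, at -0.020). The other ratios kept their direction, with ranges of -0.75 to -0.32 (CD247 over CD3E), -0.52 to -0.20 (CD3D over CD3E), -0.46 to -0.08 (ZAP70 over LCK) and -0.97 to -0.09 (CD2 over CD3E). Depth limits CD5, CD6 and ZAP70 in early CCH, with 144, 78 and 185 reads in the 5 libraries together.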

Other observations

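The summed markers of the remaining cell types overlapped between the stages. Of the 6 keratinocyte markers tested, limma called 0 with BY and 1 lower with BH adjustment, against 1.11% and 3.52% of all genes tested. For these markers edgeR and DESeq2 called 0, and 1 was lower at an unadjusted p of at most 0.05. Their log2FC values ran from -1.42 for TP63 to -0.30 for DSG3. Their summed level was highest in early library 1 (11823) and early library 4 (11798) and lowest in late library 3 (599). The 5 endothelium markers had log2FC values between -0.26 for PECAM1 and 0.87 for TIE1. Of them, 1 was higher at an unadjusted p of at most 0.05, against 15.6% of all genes tested, while limma, edgeR and DESeq2 called 0. The 4 neutrophil markers tested, from S100A9 with -1.25 to CSF3R with 1.47, were not called by limma, edgeR or DESeq2, with 0 at an unadjusted p of at most 0.05, and their sum ran from 222 in library 3 to 9379 in library 2 in early CCH and from 91.0 in library 3 to 9002 in library 2 in late CCH.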
